A study of Mus musculus with 11 samples.

Results

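The 37 genes of the mouse mitochondrial genome were examined in liver RNA, by the class, the strand and the order of the genes. They were the rows of the deposited count table whose gene symbol begins with mt-, and they made up 37 of its 13669 genes. They hold 13 protein-coding genes, 22 transfer RNA (tRNA) genes and 2 ribosomal RNA (rRNA) genes, and all 37 had enough reads to be tested. The livers came from 11 male wild-type mice on the C57BL/6J background kept on regular chow. All of them had received a recombinant adeno-associated virus of serotype 8 (rAAV) with the liver-specific LP1 promoter and an EGFP sequence with early stop codons. In 6 animals it expressed a tough decoy (TuD), an RNA with binding sites that capture *miR-379* and *miR-541* (AAV-TuD, replicates 3, 4, 5, 9, 10 and 11). In the other 5 it expressed a negative control sequence (AAV-NC, replicates 1, 2, 6, 7 and 8). The insert that the paper lists for AAV-NC holds the sequence of its control miRNA vector, not that of its control decoy. The groups therefore differ in more than the binding sites. The paper's protocol for these vectors has a fast of 5 to 6 h before dissection. Both groups carried the virus, so uninfected liver is not part of the comparison, and the time from virus to dissection is not given for these livers. The comparison asked how liver RNA differs when this decoy represses the *miR-379/miR-410* cluster.

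Mitochondria keep a small circular genome that codes for subunits of the respiratory chain and of ATP synthase, and for the rRNAs and tRNAs with which these are translated. Each strand is transcribed into a long precursor, named the heavy-strand or light-strand transcript, and tRNAs are cut out from between the longer genes to release them (the tRNA punctuation model). Most mitochondrial mRNAs then receive a short poly(A) tail, whereas tRNAs receive the bases CCA. Hepatocytes are rich in mitochondria, and mitochondrial transcripts are among the most abundant RNAs of liver. The libraries here were primed with oligo-dT and read the 3′ end of polyadenylated RNA, so a read counted on a tRNA gene need not come from the mature tRNA.

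The livers had from 8148531 to 12043959 counted reads. Major urinary protein transcripts (*Mup*, abundant secreted liver proteins) made up 8.09% to 38.6% of a library, most in AAV-NC 7, AAV-TuD 3 and AAV-TuD 5. Levels are given as CPM, the read count relative to the library size after TMM scaling in edgeR (factors from 0.667 to 1.24). Values of the AAV-NC livers are listed below in the order of replicates 1, 2, 6, 7 and 8, and those of the 6 AAV-TuD livers as the lowest, the median and the highest. Hepatocyte markers were abundant in all livers, with a summed level of 36158 to 42716 CPM in the AAV-NC group and 43863 to 50052 CPM in the AAV-TuD group.

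The 37 genes took between 17.8% and 25.7% of all reads of a liver. Their share was 25.7%, 23.4%, 23.5%, 19.3% and 24.2% in the AAV-NC livers and lay between 17.8% and 24.4%, with a median of 21.3%, in the AAV-TuD livers, and the groups overlapped. The lowest shares were those of the livers with most *Mup* reads. Among the reads outside *Mup* genes, the share was 30.98%, 28.8%, 28.7%, 31.5% and 28.04% in the AAV-NC livers and 22.8% to 26.5%, with a median of 25.9%, in the AAV-TuD livers. On this base every AAV-TuD liver was below every AAV-NC liver. These values are shares of the reads of bulk liver RNA. In them, fewer cells of a type, less mitochondrial RNA per cell and more RNA of other genes cannot be told apart.

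Protein-coding genes took 13.2% to 15.8% of the reads outside *Mup* genes in AAV-NC livers and 9.94% to 12.3% in AAV-TuD livers, without overlap. For the rRNA genes these ranges were 13.9% to 17.2% and 12.7% to 14.7%, and for the tRNA genes 0.151% to 0.213% and 0.148% to 0.228%, so that both classes overlapped between the groups. Within the mitochondrial reads, the rRNA genes took 48.4% to 55.4% in AAV-NC livers and 52.6% to 56.97% in AAV-TuD livers and the protein-coding genes 43.98% to 51.01% in AAV-NC livers and 42.1% to 46.8% in AAV-TuD livers.

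**Figure D1:**
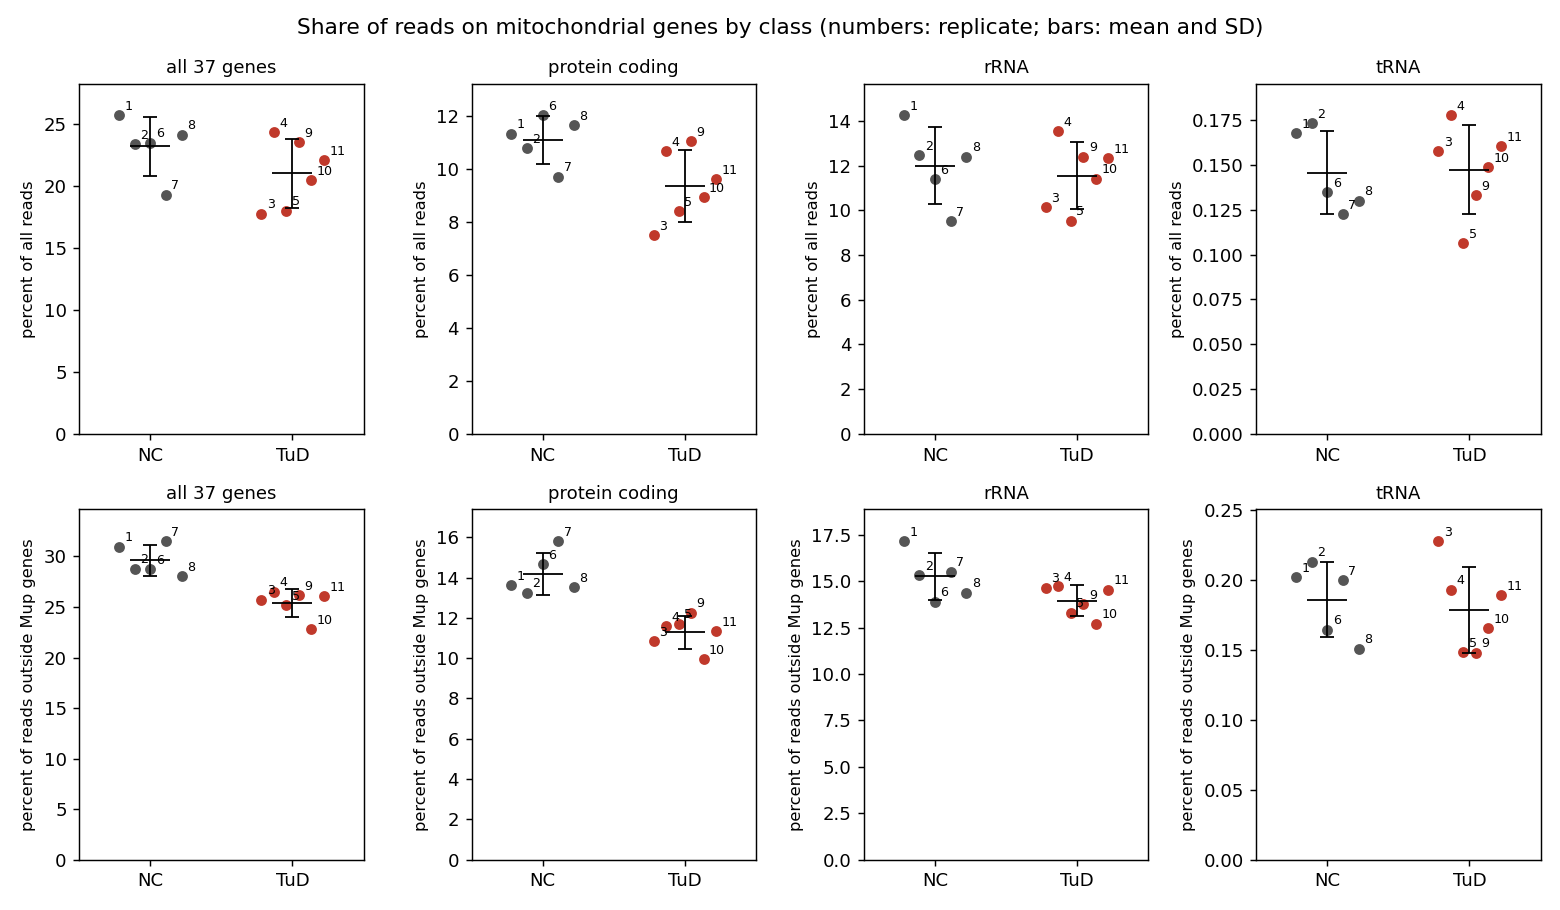
Share of reads on the 37 mitochondrial genes and on each class (columns), as percent of all reads (upper row) or of the reads outside *Mup* genes (lower row). Points are livers with their replicate number, and bars give the mean and SD of 5 AAV-NC and 6 AAV-TuD livers. Outside *Mup* genes the protein-coding share of each AAV-TuD liver was at most 12.3% and that of each AAV-NC liver at least 13.2%, while the tRNA shares overlapped.

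With TMM scaling, 28 of the 37 genes were lower and 0 were higher in AAV-TuD livers at an adjusted p value under 0.05 (quasi-likelihood test of edgeR, adjusted over 13334 genes). Over all genes tested, 4.33% were lower and 7.24% higher. At an unadjusted p value under 0.05, 1 of the 37 was higher, and DESeq2 called 30 lower and 0 higher, against 5.63% and 7.95% of all genes. The median log2 fold change was -0.58 over the 37 genes and -0.0024 over all genes tested. The groups did not overlap, with the AAV-TuD livers lower, in 26 of the 37 genes and in 3.27% of all genes tested. They did not overlap in the other direction in 0 of the 37 genes and in 4.11% of all genes.

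By class, 11 of 13 protein-coding genes, 17 of 22 tRNA genes and 0 of 2 rRNA genes were lower. The median log2 fold change was -0.47 for protein-coding genes, -0.73 for tRNA genes and -0.30 for the rRNA genes. By strand, 23 of the 28 genes of the heavy-strand transcript and 5 of the 9 genes of the light-strand transcript were lower, with medians of -0.60 and -0.51. These calls rest on the scaling. With library size alone, which raises the median of all genes to 0.23, 12 of the 37 genes were lower and 1 was higher, against 0.532% and 10.4% of all genes. The genes called lower on that scale were 2 protein-coding and 10 tRNA genes, and the higher one was *mt-Ts1*.

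**Figure D2:**
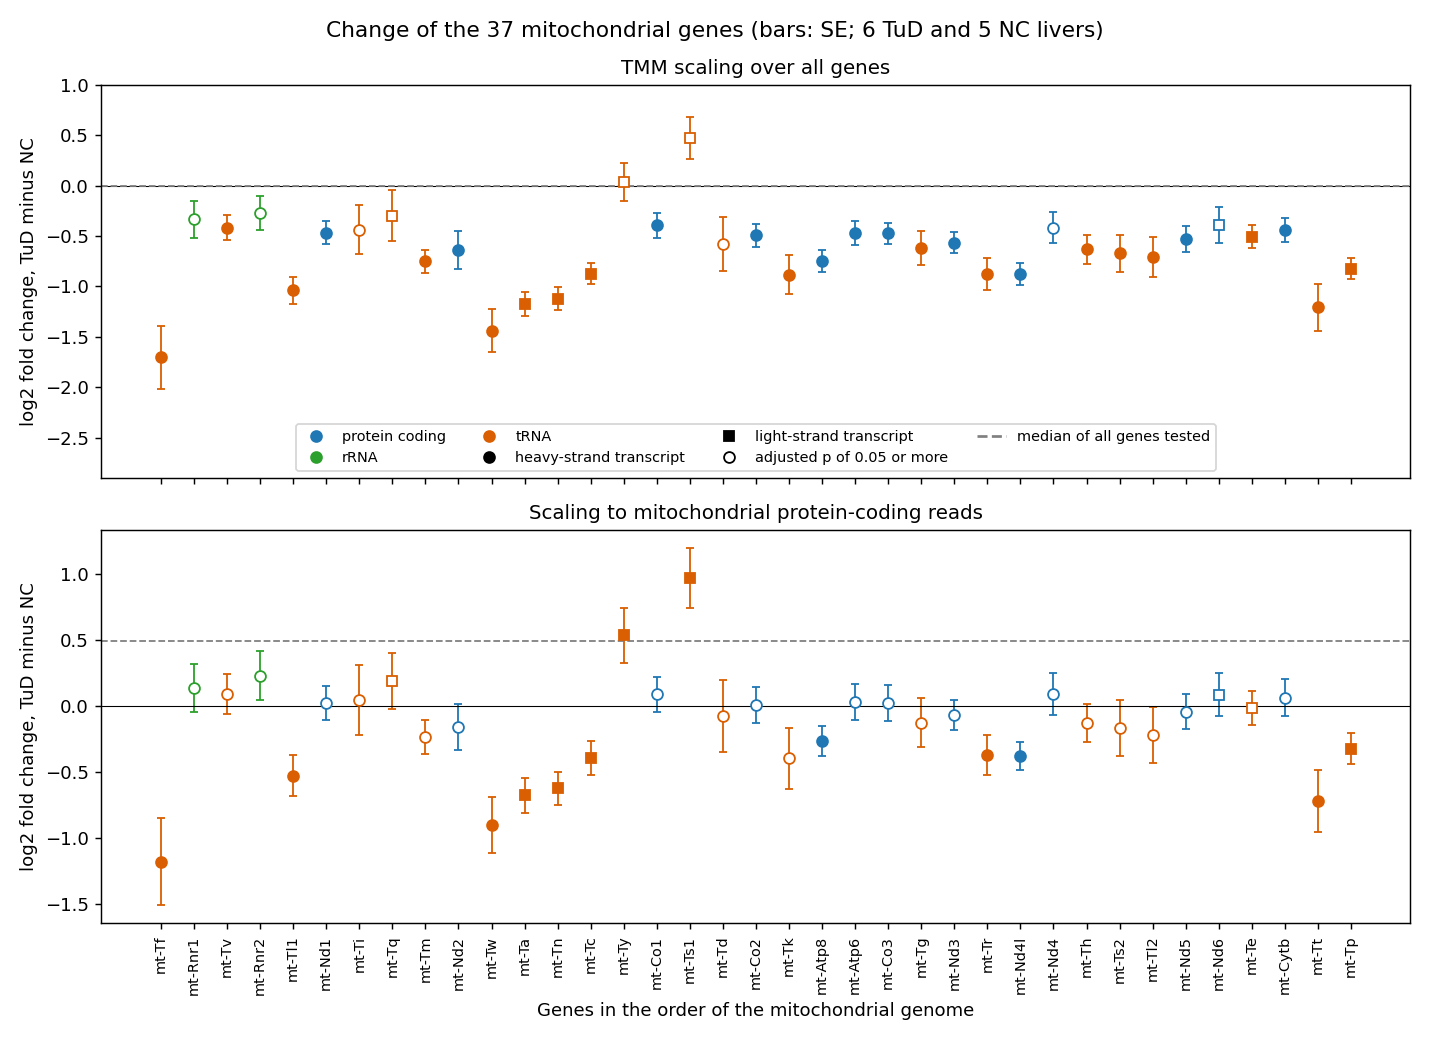
Log2 fold change (AAV-TuD minus AAV-NC) of the 37 genes in the order of the mitochondrial genome, with TMM scaling (upper panel) and with scaling to the reads of the 13 mitochondrial protein-coding genes (lower panel). Bars are SE, colours mark the class, squares mark genes of the light-strand transcript, open symbols have an adjusted p of 0.05 or more, and the dashed line is the median of all genes tested. Protein-coding genes lay between -0.88 and -0.39 in the upper panel, *mt-Tf*, *mt-Tw*, *mt-Ta* and *mt-Tn* lay below all of them, and *mt-Ts1* was at 0.47.

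The 7 protein-coding genes of complex I (NADH dehydrogenase, the entry point of electrons from NADH) included 5 that were lower. *mt-Nd1* was at 6810, 5660, 6281, 6810 and 5603 CPM in AAV-NC livers and at 3620, 4659 and 5011 in AAV-TuD livers, a log2 fold change of -0.47 (SE 0.12, adjusted p = 0.0188). *mt-Nd2* was at 30133, 26207, 28687, 34219 and 29442 CPM in AAV-NC livers and at 10361, 20512 and 22307 in the AAV-TuD group (-0.63, SE 0.19, adjusted p = 0.0403). In both genes all AAV-TuD livers lay below all AAV-NC livers, and the lowest *mt-Nd2* value was that of AAV-TuD 10. *mt-Nd3* gave 2057, 1820, 1984, 2408 and 1688 CPM against 1119, 1400 and 1462 (-0.56, SE 0.11, adjusted p = 0.00384). *mt-Nd5* gave 3266, 2869, 2682, 3391 and 2816 CPM against 1443, 2145 and 2422 (-0.53, SE 0.13, adjusted p = 0.0146), and neither gene overlapped between the groups.

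*mt-Nd4l* and *mt-Nd4* are read from a single bicistronic mRNA, on which *mt-Nd4l* comes first. The 3′ end of this mRNA lies on the side of *mt-Nd4*, so reads counted on *mt-Nd4l* need not measure the level of the mRNA. *mt-Nd4l* had the largest fall of the 13 protein-coding genes, from 389, 327, 407, 483 and 326 CPM to 179, 204 and 258 in AAV-TuD livers (-0.88, SE 0.11, adjusted p = 0.000311). *mt-Nd4* was at 29923, 30476, 34836, 44684 and 31672 CPM in AAV-NC livers and at 23758, 25413 and 28467 in AAV-TuD livers. All AAV-TuD livers were below all AAV-NC livers for *mt-Nd4* too, but its log2 fold change of -0.42 (SE 0.15, adjusted p = 0.0932) did not pass the threshold, and DESeq2 called it lower (adjusted p = 0.00116). The AAV-NC livers ranged widely in this gene, with AAV-NC 7 highest.

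*mt-Nd6* is the only protein-coding gene on the light-strand transcript. It was at 4231, 3998, 3633, 4884 and 3541 CPM in AAV-NC livers and at 1547, 3340 and 3563 in AAV-TuD livers, with overlap between the groups and a log2 fold change of -0.39 (SE 0.18, adjusted p = 0.180) that did not pass the threshold. The value of AAV-TuD 10 was less than those of all other livers, and without this liver the log2 fold change was -0.25 (SE 0.11, adjusted p = 0.194). The annotated ends of *mt-Nd5* and *mt-Nd6* share 14 bases on opposite strands, and the strand setting of the counting is not given in the sources used here. Reads from one of them could therefore not be told from reads of the other in this stretch, or beyond it where either RNA extends past its annotated end. Whether they do was not tested, so reads counted on *mt-Nd6* need not all come from the light-strand transcript.

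*mt-Cytb*, the subunit of complex III that binds ubiquinol, was lower in AAV-TuD livers (-0.44, SE 0.12, adjusted p = 0.0277). Its AAV-NC livers were at 9607, 9501, 10586, 12253 and 9551 CPM and its AAV-TuD livers at 7052, 7452 and 8523. All 3 subunits of complex IV (cytochrome c oxidase, which passes electrons to oxygen) were lower as well. *mt-Co1* was at 3681, 3607, 3296, 3854 and 3028 CPM against 1900, 2715 and 2970 (-0.39, SE 0.12, adjusted p = 0.0490), just under the threshold. *mt-Co2* was at 7859, 7041, 7746, 8930 and 6513 CPM against 5093, 5343 and 5883 (-0.49, SE 0.11, adjusted p = 0.0124). *mt-Co3* was at 7848, 7444, 7535, 8562 and 7905 CPM against 5432, 5557 and 6031 (-0.47, SE 0.10, adjusted p = 0.00907). In these 4 genes the groups did not overlap. *Gm29216* and *Gm13340*, copies of *mt-Co1* in the nuclear genome, did not fall (0.19, SE 0.16, adjusted p = 0.483, and 0.25, SE 0.16, adjusted p = 0.359). How reads shared by *mt-Co1* and these copies were counted is not given in the sources used here.

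Both genes of ATP synthase (complex V) fell. *mt-Atp8*, the first reading frame of the bicistronic *mt-Atp8/mt-Atp6* mRNA, was at 907, 805, 823, 913 and 704 CPM in AAV-NC livers and at 354, 513 and 565 in AAV-TuD livers (-0.75, SE 0.11, adjusted p = 0.000914). *mt-Atp6*, the proton channel subunit, was at 11396, 10659, 11693, 13882 and 10574 CPM against 7951, 8302 and 9202 (-0.47, SE 0.12, adjusted p = 0.0189). Neither gene overlapped between the groups. The 3′ end of their mRNA lies on the side of *mt-Atp6*, so reads counted on *mt-Atp8* need not measure the level of the mRNA.

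Of the 13 protein-coding genes, *mt-Nd1*, *mt-Co2*, *mt-Atp8*, *mt-Atp6*, *mt-Co3*, *mt-Nd3*, *mt-Nd4l* and *mt-Nd5* were called lower in at least 10 of the 11 fits that left out 1 liver. The call of *mt-Nd1* was lost without AAV-NC 1. *mt-Cytb* was called in 6 of these fits and lost without AAV-NC 6 or 7 or AAV-TuD 4, 10 or 11. *mt-Nd2* was called in 2, without AAV-TuD 5 and without AAV-TuD 10, and *mt-Co1* in 2, without AAV-NC 8 and without AAV-TuD 3. After a trend of the fold change with abundance was removed, 3 protein-coding genes and 17 tRNA genes remained lower, against 2.68% of all genes, and 0 were higher, against 6.05%.

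The rRNA genes held the most reads per length. In AAV-NC livers the mean level per kb of gene was 55193 CPM for *mt-Rnr2* (16S, large ribosomal subunit), 45471 CPM for *mt-Rnr1* (12S, small subunit), 28649 CPM for *mt-Nd2* and 24904 CPM for *mt-Nd4*, next in order. *mt-Rnr2* was at 100528, 86257, 76407, 96496 and 76889 CPM in AAV-NC livers and at 68033, 72430 and 76106 in AAV-TuD livers. Its groups did not overlap, but AAV-NC 6 and the highest AAV-TuD liver were close together, and the log2 fold change of -0.27 (SE 0.17, adjusted p = 0.339) did not pass the threshold. DESeq2 called *mt-Rnr2* lower (adjusted p = 0.0120). *mt-Rnr1* was at 48136, 41537, 37654, 46070 and 43727 CPM against 19813, 37140 and 38420, with overlap (-0.34, SE 0.19, adjusted p = 0.279), and AAV-TuD 10 was far below the other livers.

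The tRNA genes carried between 8 and 9809 reads per liver and gene. The median coefficient of variation among AAV-NC livers was 19.1% for tRNA genes and 11.5% for protein-coding genes, and it was also high for the tRNA genes with most reads, at 33.3% for *mt-Ts1* and 35.6% for *mt-Tq*. The tRNAs on which the results below turn are shown 5′ to 3′ as annotated by GENCODE M21 on GRCm38, without the CCA end, to show where they lie and how they differ. Capitals mark the anticodon, the bases that pair with the codon.

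mt-Tf (phenylalanine, chrM:1-68, + strand): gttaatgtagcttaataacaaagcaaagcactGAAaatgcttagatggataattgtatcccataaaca
mt-Tw (tryptophan, chrM:4950-5016, + strand): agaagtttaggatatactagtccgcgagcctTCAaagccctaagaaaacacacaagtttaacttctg
mt-Ta (alanine, chrM:5018-5086, - strand): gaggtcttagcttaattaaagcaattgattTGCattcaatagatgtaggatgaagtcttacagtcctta
mt-Tn (asparagine, chrM:5089-5159, - strand): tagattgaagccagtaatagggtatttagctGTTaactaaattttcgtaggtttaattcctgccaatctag
mt-Tc (cysteine, chrM:5192-5257, - strand): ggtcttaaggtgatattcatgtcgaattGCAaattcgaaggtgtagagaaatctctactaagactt
mt-Ty (tyrosine, chrM:5260-5326, - strand): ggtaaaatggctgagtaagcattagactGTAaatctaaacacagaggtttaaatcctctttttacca
mt-Ts1 (serine, chrM:6870-6938, - strand): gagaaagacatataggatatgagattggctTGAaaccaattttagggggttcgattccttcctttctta

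*mt-Tf* opens the heavy-strand transcript, ahead of *mt-Rnr1*, and had the lowest log2 fold change of the 37 genes, at -1.70 (SE 0.31, adjusted p = 0.00348). It was at 4.30, 4.28, 2.43, 5.38 and 3.21 CPM in AAV-NC livers and at 0.647, 1.05 and 2.33 in AAV-TuD livers. These are 22 to 43 and 8 to 27 reads, and the highest AAV-TuD liver, replicate 10, was just under AAV-NC 6. *mt-Tv* and *mt-Tl1* flank *mt-Rnr2*. *mt-Tv* was at 16.2, 13.3, 12.2, 17.02 and 13.03 CPM against 8.50, 11.01 and 12.3, overlapped between groups and was called lower by a small margin (-0.42, SE 0.13, adjusted p = 0.0438). *mt-Tl1*, which also holds the binding site of the termination factor MTERF1, was at 37.7, 29.7, 28.8, 42.3 and 28.6 CPM against 12.3, 16.4 and 21.1 without overlap (-1.04, SE 0.14, adjusted p = 0.000356). The log2 fold changes of *mt-Tf* and *mt-Tl1* were thus further from 0 than those of *mt-Rnr1*, *mt-Tv* and *mt-Rnr2* between them, a difference that was not tested.

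Between *mt-Nd1* and *mt-Nd2* lie *mt-Ti*, *mt-Tq* and *mt-Tm*. *mt-Tm* (methionine, used at the start of translation) was at 93.4, 79.7, 85.97, 127 and 95.1 CPM against 47.3, 57.3 and 65.2 and did not overlap (-0.75, SE 0.11, adjusted p = 0.00106). *mt-Ti* was at 2.98, 2.01, 2.32, 2.25 and 2.43 CPM against 1.03, 1.90 and 2.44 (-0.44, SE 0.25, adjusted p = 0.279). *mt-Tq*, on the light-strand transcript, was at 389.6, 274, 262, 377 and 137 CPM against 103, 252 and 303 (-0.30, SE 0.25, adjusted p = 0.502). Neither of the latter passed the threshold and both overlapped, and *mt-Tq* was lowest in AAV-TuD 10 and AAV-NC 8.

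The cluster between *mt-Nd2* and *mt-Co1* holds the tRNAs for tryptophan, alanine, asparagine, cysteine and tyrosine around the origin of light-strand replication. In the first 4 of them all AAV-TuD livers were below all AAV-NC livers. *mt-Tw* was at 42.6, 37.6, 29.2, 63.8 and 38.2 CPM in AAV-NC livers and at 9.75, 15.96 and 22.9 in AAV-TuD livers (-1.44, SE 0.21, adjusted p = 0.000953). *mt-Ta* was at 86.2, 70.7, 77.8, 94.00 and 80.6 CPM against 30.1, 34.3 and 50.4 (-1.18, SE 0.12, adjusted p = 4.09e-05). From *mt-Tw* to *mt-Ty* the log2 fold changes came closer to 0 from gene to gene. *mt-Tn* was at 118, 102, 97.5, 123 and 95.6 CPM against 38.6, 49.01 and 61.7 (-1.12, SE 0.11, adjusted p = 4.80e-05). *mt-Tc* was at 27.3, 22.3, 24.9, 21.9 and 23.8 CPM against 10.4, 13.1 and 15.8 (-0.87, SE 0.10, adjusted p = 0.000188). *mt-Ty*, the last and the one next to *mt-Co1*, was at 11.3, 11.6, 9.29, 10.51 and 6.91 CPM against 6.23, 10.49 and 13.9, with overlapping groups and a log2 fold change of 0.03 (SE 0.19, adjusted p = 0.939) that did not pass the threshold.

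*mt-Ts1* was the tRNA gene with most reads per length, at a mean of 6717 CPM per kb in AAV-NC livers. It was at 415, 725, 338, 469 and 371 CPM in AAV-NC livers and at 439, 660.4 and 921 in AAV-TuD livers. Its log2 fold change of 0.47 (SE 0.21, adjusted p = 0.156) was the highest of the 37 genes and did not pass the threshold. With library size alone *mt-Ts1* was called higher (0.70, SE 0.21, adjusted p = 0.0216). AAV-NC 2 was well above the other AAV-NC livers, and without it *mt-Ts1* was called higher with a log2 fold change of 0.69 (SE 0.18, adjusted p = 0.0290). *mt-Ts1* lies on the strand opposite to *mt-Co1*, whose last 3 bases it overlaps, and the *mt-Co1* mRNA of mammals is known to run on across the complement of this tRNA. Without the strand setting, reads of the 2 RNAs could not be told apart. *mt-Td*, the next gene, had 10 to 23 reads per liver and did not pass the threshold (-0.58, SE 0.27, adjusted p = 0.183).

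The other tRNA genes of the heavy-strand transcript were all called lower. *mt-Tk* was at 4.42, 3.65, 2.66, 3.76 and 3.50 CPM against 1.27, 2.10 and 2.31 (-0.88, SE 0.20, adjusted p = 0.00974). *mt-Tr* was at 17.4, 17.6, 15.8, 25.03 and 17.2 CPM against 7.67, 9.90 and 13.2 (-0.87, SE 0.16, adjusted p = 0.00334). *mt-Tt*, between *mt-Cytb* and *mt-Tp*, was at 5.13, 2.26, 3.10, 4.51 and 4.28 CPM against 1.03, 1.72 and 1.97 (-1.21, SE 0.23, adjusted p = 0.00432). All 3 were without overlap between the groups, at 12 to 200 reads per liver. *mt-Tg* was at 9.55, 7.93, 6.09, 9.01 and 7.10 CPM against 4.05, 4.87 and 7.13 and overlapped (-0.62, SE 0.17, adjusted p = 0.0280).

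The tRNAs for histidine, serine (the second serine tRNA) and leucine (the second leucine tRNA) lie side by side between *mt-Nd4* and *mt-Nd5*, and all 3 were lower. *mt-Th* was at 8.95, 11.7, 11.3, 17.02 and 10.99 CPM against 7.04, 7.62 and 8.81 (-0.63, SE 0.14, adjusted p = 0.00975). *mt-Ts2* was at 2.98, 3.02, 3.21, 4.63 and 3.60 CPM against 1.78, 2.21 and 2.65 (-0.67, SE 0.18, adjusted p = 0.0277). *mt-Tl2* was at 11.8, 10.2, 6.09, 10.6 and 13.3 CPM against 4.29, 6.21 and 9.20 and overlapped (-0.71, SE 0.20, adjusted p = 0.0302). *mt-Th* was called in all 11 fits that left out a liver. *mt-Ts2* was called in 6, *mt-Tg* in 5, *mt-Tl2* in 4 and *mt-Tv* in 2 of them, the last without AAV-NC 6 and without AAV-TuD 11.

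On the light-strand transcript, *mt-Te* and *mt-Tp* were lower. *mt-Te*, next to *mt-Nd6*, was at 296, 231, 217, 256 and 198 CPM against 138, 166 and 209.8 (-0.51, SE 0.11, adjusted p = 0.00987), and only AAV-TuD 3 reached the AAV-NC range. *mt-Tp*, the gene nearest to the control region on this strand, was at 149.5, 117, 114, 152 and 111 CPM against 63.9, 71.3 and 85.4 without overlap (-0.82, SE 0.11, adjusted p = 0.000308). Of the 22 tRNA genes, *mt-Tf*, *mt-Tl1*, *mt-Tm*, *mt-Tw*, *mt-Ta*, *mt-Tn*, *mt-Tc*, *mt-Tr*, *mt-Tt* and *mt-Tp* were called lower in all of the 22 fits scaled to the whole library, that with library size alone included, and of the protein-coding genes *mt-Nd4l* and *mt-Atp8* were.

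The composition within the mitochondrial reads does not depend on the scaling of the libraries or on the *Mup* share. It was compared by using the summed reads of the 13 protein-coding genes as the library size and is given as reads per 10000 of these. On this scale 11 of the 37 genes were lower and 2 higher in AAV-TuD livers (edgeR, adjusted p under 0.05). Over all genes tested 0.39% were lower and 62.8% higher, with a median log2 fold change of 0.49. These shares come with the scale and are not a background for the members. The lower genes were 9 tRNA genes (*mt-Tf*, *mt-Tl1*, *mt-Tw*, *mt-Ta*, *mt-Tn*, *mt-Tc*, *mt-Tr*, *mt-Tt* and *mt-Tp*) and *mt-Nd4l* and *mt-Atp8*. The higher ones were *mt-Ts1* and *mt-Ty*. The other 11 protein-coding genes had log2 fold changes between -0.16 and 0.09, and the rRNA genes 0.14 (SE 0.18, adjusted p = 0.498) and 0.23 (SE 0.19, adjusted p = 0.273). The adjustment runs over all genes tested, and with 62.8% of them called higher it raises p values little. The edgeR calls of *mt-Ty*, *mt-Tr* and *mt-Atp8* rest on unadjusted p values of 0.0183, 0.0231 and 0.0273. No adjustment over the 37 genes alone was made.

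Per 10000 protein-coding reads, *mt-Ta* was at 7.30, 6.40, 6.47, 6.47 and 7.11 reads in AAV-NC livers and at 3.46, 3.91 and 5.95 in AAV-TuD livers (-0.68, SE 0.13, adjusted p = 0.000456). *mt-Tn* was at 9.98, 9.25, 8.11, 8.46 and 8.43 against 4.07, 5.73 and 7.28 (-0.62, SE 0.13, adjusted p = 0.000691). *mt-Nd4l* was at 32.96, 29.6, 33.9, 33.2 and 28.7 against 22.2, 23.7 and 27.8 (-0.38, SE 0.11, adjusted p = 0.00567). These were the 3 members in which every AAV-TuD liver lay below every AAV-NC liver on this scale, as did 0.0675% of all genes tested.

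*mt-Tf* and *mt-Tw* had the largest falls on this scale, with 1 AAV-TuD liver inside the AAV-NC range. *mt-Tf* was at 0.364, 0.387, 0.203, 0.370 and 0.283 against 0.0683, 0.116 and 0.322 (-1.18, SE 0.33, adjusted p = 0.00563). *mt-Tw* was at 3.61, 3.41, 2.43, 4.39 and 3.37 against 1.13, 1.80 and 3.18 (-0.90, SE 0.21, adjusted p = 0.00197). In both genes AAV-TuD 10 was the liver within the range, and without it the log2 fold changes were -1.57 and -1.12. *mt-Tl1* was also lower (-0.53, SE 0.15, adjusted p = 0.00664), as was *mt-Tt* (-0.72, SE 0.24, adjusted p = 0.0141), the latter with 18 to 44 reads per AAV-NC liver and 12 to 22 per AAV-TuD liver.

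*mt-Ts1* was at 35.1, 65.7, 28.1, 32.3 and 32.7 reads per 10000 in AAV-NC livers and at 47.4, 80.1 and 109 in AAV-TuD livers (0.97, SE 0.23, adjusted p = 0.00182), and AAV-NC 2 reached above the lower AAV-TuD livers. *mt-Ty* was at 0.960, 1.05, 0.773, 0.724 and 0.609 against 0.657, 1.27 and 1.60 (0.53, SE 0.21, adjusted p = 0.0321), with overlap. This scale was also fitted with each liver left out and with the median ratio of the 13 genes as the scale, 2 alternatives chosen after seeing the data. The call of *mt-Ts1* held in all 13 fits of this kind, and that of *mt-Ty* in 7. Of the lower genes, *mt-Tf*, *mt-Tl1*, *mt-Tw*, *mt-Ta*, *mt-Tn*, *mt-Tc* and *mt-Nd4l* were called in all 13, *mt-Tt* and *mt-Tp* in 12, and *mt-Tr* and *mt-Atp8* in 5.

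**Figure D3:**
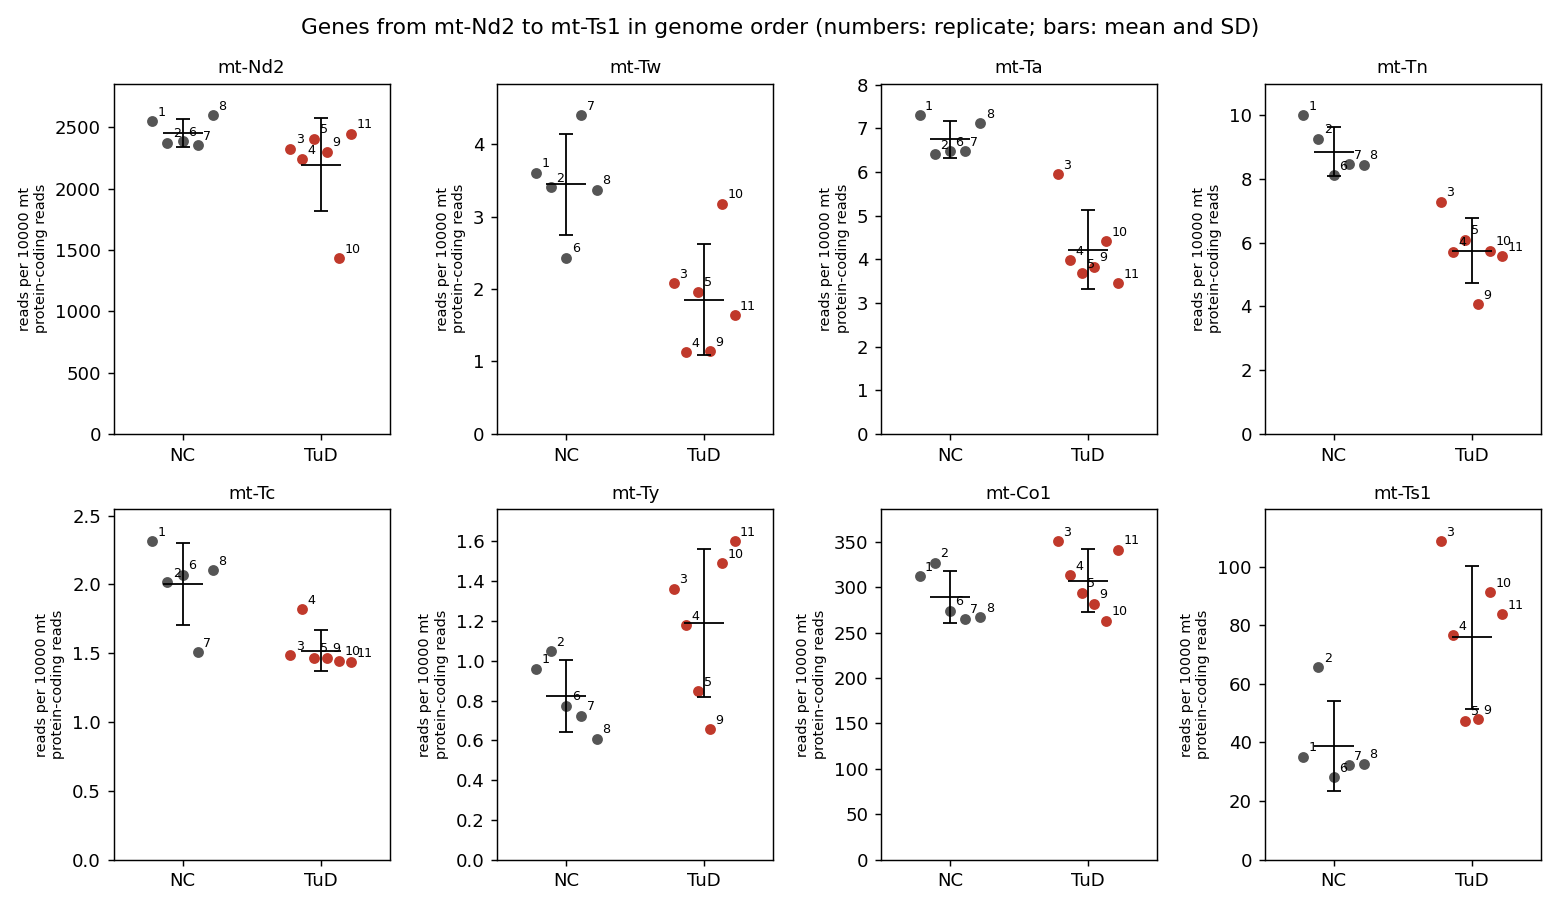
Reads per 10000 mitochondrial protein-coding reads in each liver for the genes from *mt-Nd2* to *mt-Ts1*, in genome order. Points are livers with their replicate number, and bars give the mean and SD of 5 AAV-NC and 6 AAV-TuD livers. All AAV-TuD livers are below the AAV-NC livers for *mt-Ta* and *mt-Tn*, *mt-Ts1* reaches 109 in AAV-TuD 3, and AAV-TuD 10 stands apart in *mt-Nd2*.

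Ratios of genes that lie near each other were compared in each liver. *mt-Nd4l* gave 1.30, 1.07, 1.17, 1.08 and 1.03 reads per 100 reads of *mt-Nd4* in AAV-NC livers and 0.703, 0.773 and 0.976 in AAV-TuD livers, without overlap. The corresponding ratio of *mt-Atp8* to *mt-Atp6* was 7.96, 7.55, 7.04, 6.58 and 6.66 against 4.46, 5.94 and 6.76, with AAV-TuD 5 inside the AAV-NC range. In both bicistronic mRNAs, the first reading frame thus had fewer reads relative to the second in AAV-TuD livers, in 6 of 6 and 5 of 6 of them below all AAV-NC livers. The annotated reading frames share 7 bases in the first pair and 43 bases in the second, and how reads in a shared stretch were assigned is not given in the sources used here. In 3′ end libraries, reads on a first reading frame need not come from the end of the mRNA, and where they began was not tested.

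*mt-Ty* gave 26.6, 30.8, 31.8, 16.5 and 18.1 reads per 100 reads of *mt-Tw* in AAV-NC livers and 43.3, 61.4 and 105 in AAV-TuD livers, so the ends of the same tRNA cluster moved apart without overlap. *mt-Ts1* gave 11.3, 20.1, 10.2, 12.2 and 12.2 reads per 100 reads of *mt-Co1* against 16.1, 24.5 and 34.7, and 4 of 6 AAV-TuD livers were above all AAV-NC livers. *mt-Nd6* gave 129.5, 139, 135, 144 and 126 reads per 100 of *mt-Nd5* against 107, 150.4 and 165. In 5 of 6 AAV-TuD livers this ratio was above all AAV-NC livers, and in AAV-TuD 10 it was below them. Without the strand setting, reads counted on *mt-Nd6* could include reads from the opposite strand. These ratios were not tested.

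**Figure D4:**
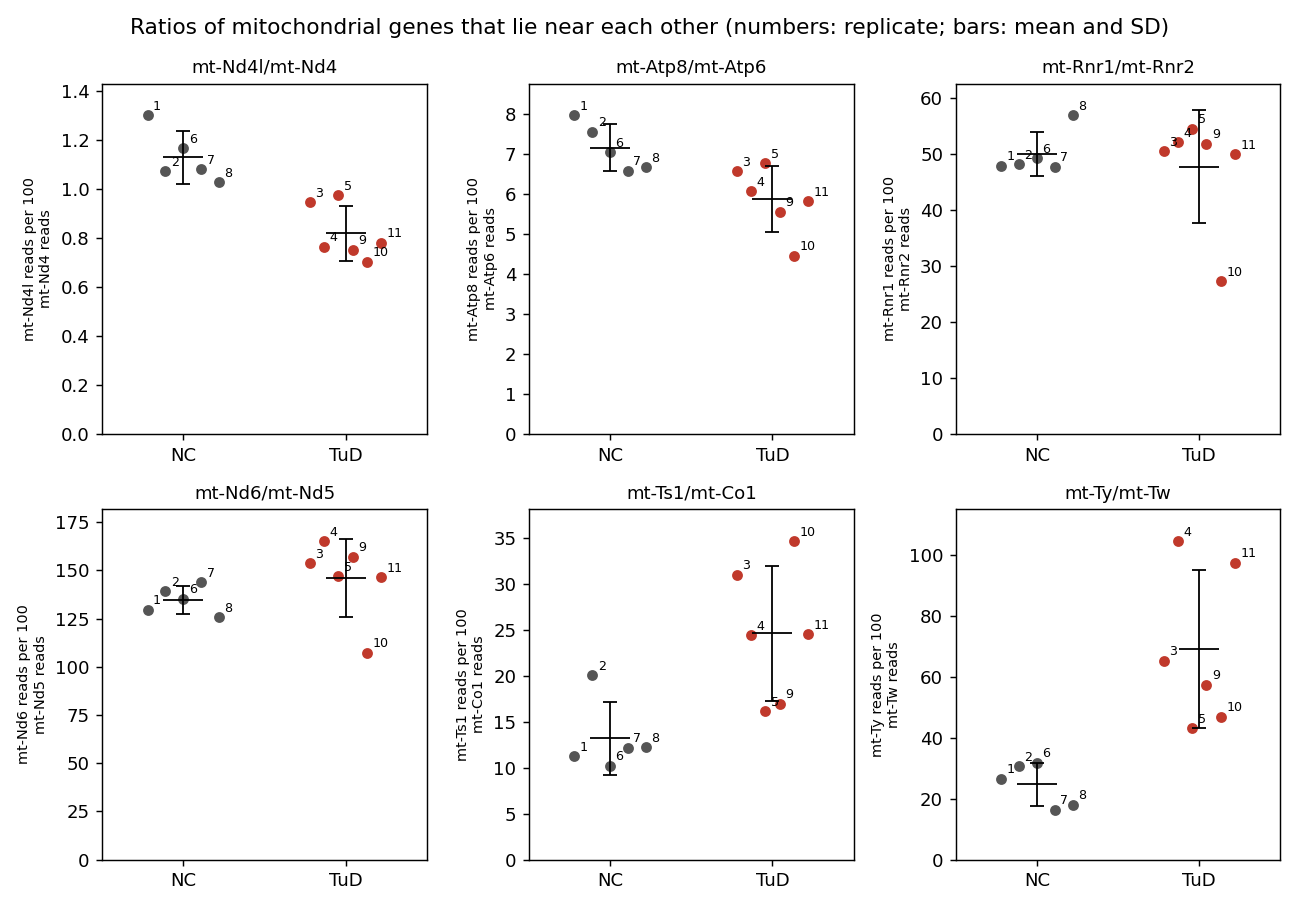
Reads of the first gene per 100 reads of the second in each liver, for 6 pairs of mitochondrial genes that lie near each other. Points are livers with their replicate number, and bars give the mean and SD of 5 AAV-NC and 6 AAV-TuD livers. The groups are separate for *mt-Nd4l/mt-Nd4* and *mt-Ty/mt-Tw*, and AAV-TuD 10 has the lowest *mt-Rnr1/mt-Rnr2* ratio, at 27.3.

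Of the reads counted on tRNA genes, more lay on genes of the light strand in AAV-TuD livers. These 8 genes took 85.2%, 87.4%, 84.4%, 81.8% and 80.9% of the tRNA reads in AAV-NC livers and 87.9% to 91.0%, with a median of 89.99%, in AAV-TuD livers, without overlap. *mt-Ts1* alone, whose reads cannot be told from an extended *mt-Co1* mRNA, took 23.7%, 40.8%, 25.02%, 25.5% and 29.3% in AAV-NC livers and 37.4% to 54.7% in AAV-TuD livers. The other 7 light-strand tRNA genes gave 57.6 to 91.2 reads per 10000 protein-coding reads in AAV-NC livers and 55.4 to 82.8 in AAV-TuD livers, with overlap and 1 of 6 under the AAV-NC range. *mt-Tq* has many of these reads, varied among the AAV-NC livers and did not fall on this scale (log2 fold change 0.19, SE 0.21). Without it too, a choice made with its values known, the remaining 6 genes gave 45.0 to 58.3 and 32.6 to 50.9, with 5 of 6 below. The heavy-strand tRNA genes gave 17.5 to 23.1 and 11.9 to 20.1, with 4 of 6 below.

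The livers also differed from each other within a group, and AAV-TuD 10 stood apart in the composition of its mitochondrial reads. Of the 15 protein-coding and rRNA genes, 6 were lower and 6 higher in it than in all other 10 livers, per protein-coding read. *mt-Rnr1*, *mt-Nd2*, *mt-Co1*, *mt-Atp8*, *mt-Nd5* and *mt-Nd6* were the lower ones. *mt-Rnr2*, *mt-Co2*, *mt-Atp6*, *mt-Co3*, *mt-Nd4* and *mt-Cytb* were the higher ones. In the other livers at most 6 of these 15 genes were outside the range of all other livers, in AAV-NC 1 (lowest for 2 and highest for 4). The base of these values is the protein-coding sum, so a fall of an abundant gene such as *mt-Nd2* raises the values of the others. In CPM, AAV-TuD 10 was the highest of all livers in 0 mitochondrial genes.

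The ratio of *mt-Rnr1* to *mt-Rnr2* shows this liver most plainly. It was 47.9, 48.2, 49.3, 47.7 and 56.9 reads per 100 in AAV-NC livers, 49.9 to 54.5 in the other 5 AAV-TuD livers and 27.3 in AAV-TuD 10. *mt-Nd2* was at 1434 reads per 10000 protein-coding reads in this liver and at 2241 to 2597 in all others, and *mt-Nd6* at 214 against 302 to 420. AAV-TuD 10 was not shallow (9390233 reads), and its *Mup* share of 10.2% was close to those of AAV-TuD 4 and 9. Without it, 23 of the 37 genes were lower with TMM scaling.

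Among the tRNA genes, AAV-TuD 9 had the lowest value of all livers in 11 of 22 and AAV-NC 1 the highest in 8, per protein-coding read. Before scaling to mitochondrial reads, AAV-NC 7, the liver with most *Mup* reads, had the highest CPM of all livers in 24 of the 37 genes, and AAV-TuD 10 the lowest in 17. Without AAV-NC 7, AAV-TuD 3 and AAV-TuD 5 together, 23 of the 37 genes were lower.

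**Figure D5:**
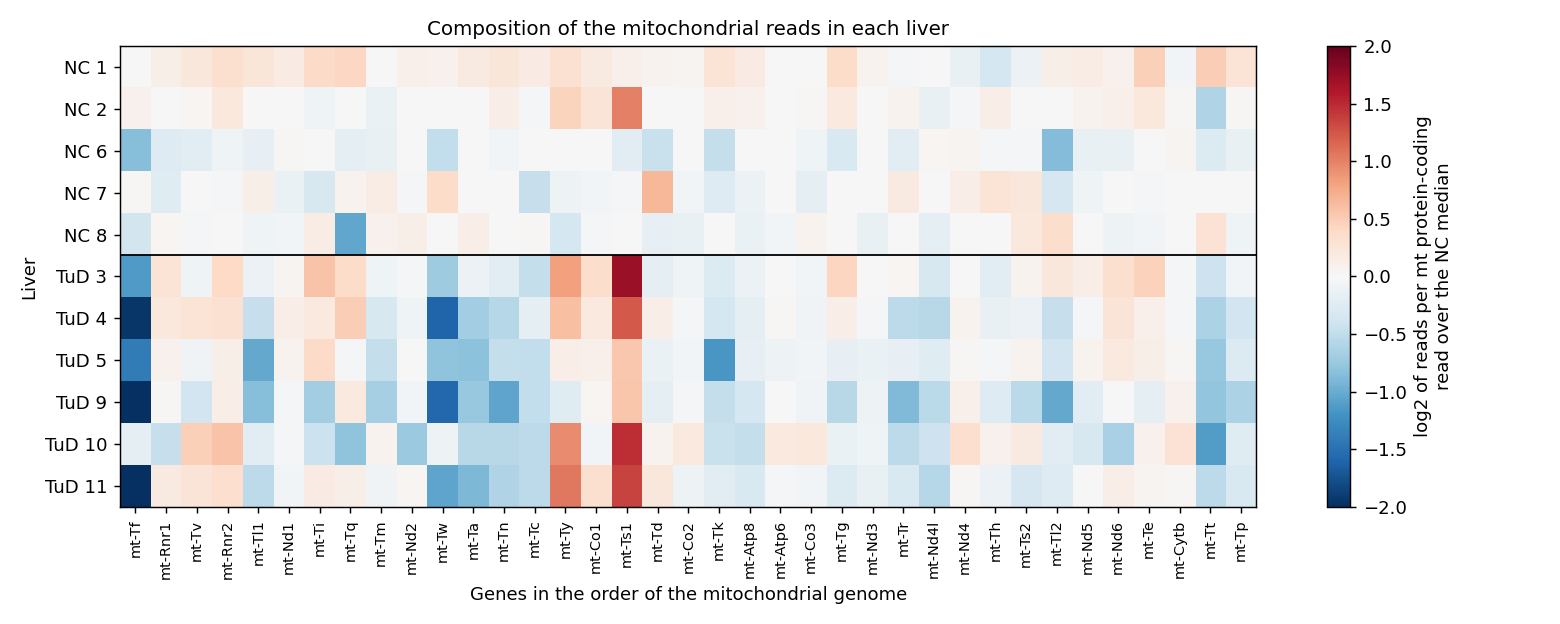
Composition of the mitochondrial reads: log2 of each gene's reads per mitochondrial protein-coding read over the median of the 5 AAV-NC livers, with genes in genome order (columns) and livers in rows, the line separating AAV-NC from AAV-TuD. Colours end at -2 and 2. *mt-Tf*, *mt-Tw*, *mt-Ta* and *mt-Tn* are low and *mt-Ts1* is high in AAV-TuD livers, and AAV-TuD 10 is low in *mt-Rnr1*, *mt-Nd2* and *mt-Nd6*.

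Oligo-dT can also anneal to stretches of A inside an RNA. The annotated *mt-Rnr2* has 4 runs of at least 6 A, *mt-Nd2* 3, *mt-Nd4* and *mt-Nd5* 2 each, and *mt-Nd1*, *mt-Co1*, *mt-Tr* and *mt-Th* 1 each. *mt-Rnr1* and the other protein-coding genes have none. The content of A was 33.8% in the median protein-coding gene, 38.0% in the rRNA genes and 35.2% in the median tRNA gene. Among the tRNA genes it ran from 22.4% in *mt-Tp*, which fell, to 45.7% in *mt-Td*, which did not pass the threshold. It was 42.6% in *mt-Tf*, with the largest fall, 29.0% in *mt-Ts1* and 35.8% in *mt-Ty*. A relation between the content of A and the fold change was not tested. Whether reads began at runs of A was not tested either, since read positions were not used here.

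Parts of the mitochondrial genome have copies in the nuclear genome, and 9 annotated copies were in the table. Some of those on chromosome 1 had nearly the same number of reads as the gene they match. *Gm28661* is 100% identical to *mt-Co2* over 681 bases and had 701036 reads over all livers, against 691739 for *mt-Co2*. *Gm28437* (*mt-Co3*, 783 bases, 100%) had 790152 against 720459, and *Gm10222* (*mt-Nd4l*, 294 bases, 100%) 30847 against 30678. For the copies of *mt-Co2*, *mt-Co3*, *mt-Nd3* and *mt-Nd4l* the counts were between 99.1 and 111 per 100 reads of the gene in every liver. How reads that match more than one place were counted is not given in the sources used here, and totals per liver can include such reads more than once. Of the 9 copies 6 were lower, and *Gm10222* at -0.88 (SE 0.11, adjusted p = 0.000311) and *Gm28661* at -0.49 (SE 0.11, adjusted p = 0.0123) were close to *mt-Nd4l* and *mt-Co2*.

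The 2 copies of *mt-Co1* did not pass the threshold. *Gm29216* matches its last 483 bases (99.8% identical), and *Gm13340* its whole length (97.6%). *Gm29216* had 247557 reads over all livers against 328000 for *mt-Co1*, and a log2 fold change of 0.19 (SE 0.16, adjusted p = 0.483), while *mt-Co1* had -0.39 (SE 0.12, adjusted p = 0.0490). *Gm13340* was at 0.25 (SE 0.16, adjusted p = 0.359). Per 100 reads of *mt-Co1*, *Gm29216* had 49.0, 80.6, 57.0, 53.7 and 56.3 reads in AAV-NC livers and 66.1 to 121, with a median of 89.9, in AAV-TuD livers. AAV-NC 2 was the highest AAV-NC liver in this ratio, as it was for *mt-Ts1* to *mt-Co1*, and AAV-TuD 3 and 10 were the highest AAV-TuD livers in both. Both ratios have *mt-Co1* as their base, so they are not separate observations. The *mt-Co1* reads were lowest of the AAV-NC livers in AAV-NC 2 (28662) and lowest of all livers in AAV-TuD 10 (22035). The last part of *mt-Co1* borders on *mt-Ts1*, and whether the reads counted on *Gm29216* and *mt-Ts1* are linked was not tested.

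Nuclear genes that maintain and express the mitochondrial genome were examined next. Of 122 tested genes for mitochondrial DNA replication and transcription, RNA cleavage, polyadenylation and decay, tRNA and rRNA modification, aminoacylation and biogenesis control, 1 was lower (0.820%) and 2 were higher (1.64%), against 4.33% and 7.24% of all genes. With library size alone 0 were lower and 7 higher (5.74%), against 0.532% and 10.4% of all genes. *Nsun2*, a tRNA cytosine methyltransferase, fell by 0.29 on the log2 scale (SE 0.07, adjusted p = 0.0117), from a mean of 57.8 to 47.3 CPM. *Nsun3*, which methylates the mitochondrial methionine tRNA, was at 3.07 ± 0.284 CPM (SD, n = 5) and 4.55 ± 0.894 CPM (SD, n = 6), a log2 fold change of 0.55 (SE 0.17, adjusted p = 0.0462). *Nfe2l2*, the transcription factor NRF2 of the oxidative stress response, rose from 62.9 ± 8.20 to 102 ± 17.4 CPM (0.69, SE 0.12, adjusted p = 0.00212).

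In the list for replication and transcription 0 of 27 genes, and in that for cleavage, polyadenylation and decay 0 of 27, passed the threshold in either direction, by edgeR and by DESeq2. At an unadjusted p value under 0.05 these were 4 and 2. The aminoacyl-tRNA synthetases likewise had 0 of 23 (3 at the unadjusted value). The summed levels of these 3 lists overlapped between the groups, at 185 to 200, 528 to 572 and 176 to 193 CPM in AAV-NC livers and 185 to 190, 507 to 548 and 177 to 187 CPM in AAV-TuD livers.

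The nuclear subunits of complexes I to V had 3 of 76 tested genes lower (3.95%) and 0 higher, a lower share close to the 4.33% of all genes. DESeq2 called 10 lower (13.2%), against 5.63% of all genes. The 3 were the complex I subunits *Ndufb5* (-0.28, SE 0.07, adjusted p = 0.0156), *Ndufa12* (-0.23, SE 0.06, adjusted p = 0.0160) and *Ndufb9* (-0.27, SE 0.07, adjusted p = 0.0212). Summed over the list, nuclear complex I subunits were at 2829 to 2933 CPM in AAV-NC livers and 2545 to 2818 CPM in AAV-TuD livers, without overlap, and those of complex III at 1162 to 1224 and 1023 to 1132 CPM. The lists for complexes II, IV and V overlapped. Median log2 fold changes of the 5 lists were between -0.12 and -0.06, against -0.47 for the mitochondrial protein-coding genes. With library size alone, 0 of the 76 genes were called in either direction, against 0.532% of all genes lower and 10.4% higher.

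Among other mitochondrial proteins encoded in the nucleus, 1 of 16 tested genes rose and 1 fell, against 7.24% and 4.33% of all genes. *Vdac1*, the channel of the outer membrane, rose by 0.53 on the log2 scale (SE 0.07, adjusted p = 0.000251), from 99.7 ± 5.46 to 144 ± 8.64 CPM. *Hspe1*, the mitochondrial chaperonin HSP10, fell by 0.29 (SE 0.08, adjusted p = 0.0260).

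Markers of other liver cell types moved between the groups beside the mitochondrial genes. The shares to set beside their counts are 7.24% higher and 4.33% lower among all genes tested. Of 10 stellate cell markers 8 were higher, with a summed level of 224 to 315 CPM in AAV-NC livers and 395 to 523 CPM in AAV-TuD livers, without overlap. Of 10 Kupffer cell markers 7 were higher (126 to 186 and 141 to 399 CPM, with overlap). Of 4 tested cholangiocyte markers 4 were higher (21.2 to 41.8 and 47.9 to 80.4 CPM). Of 10 sinusoidal endothelial markers 0 were called (0 at an unadjusted p value under 0.05, and 0 by DESeq2), and of 7 tested blood cell markers 1 was higher (*Ptprc*, 0.70, SE 0.19, adjusted p = 0.0296). At an unadjusted p value under 0.05, 5 of these 7 were higher. With library size alone 5 were also called higher, against 10.4% of all genes. Their summed level was 1924 to 2762 CPM in AAV-NC livers and 2530 to 7015 CPM in AAV-TuD livers, with overlap.

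Of 10 hepatocyte markers 3 were lower, *Apob*, *Hnf4a* and *Asgr1*, against 4.33% of all genes, while the summed level of the list was higher in all AAV-TuD livers. The nuclear-retained RNAs *Malat1* and *Neat1* were at 2067 to 2563 CPM in AAV-NC livers and 2340 to 2812 CPM in AAV-TuD livers together, with overlap. The part of cell composition and of RNA quality in the differences of the mitochondrial genes was not tested.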

How the data were processed

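Liver RNA of 5 AAV-NC and 6 AAV-TuD mice was measured with QuantSeq 3′ libraries made from 500 ng of total RNA. The deposited values are counts of reads per gene and liver. The authors made them with BBDuk (trimming), STAR 2.5.3a (alignment, GRCm38) and Rsubread (counting), and the strand and multi-mapping settings are not given in the sources used here. A gene was kept if 5 or more livers had over 10 reads, and tested by quasi-likelihood in edgeR 4.0.16 (TMM factors, group as the only term, Benjamini-Hochberg adjustment over 13334 genes, R 4.3.3), which was tested on simulated data first. The SE is the absolute log2 fold change over the square root of the F statistic. The alternatives were DESeq2 1.42.0, limma 3.58.1 (voom with quality weights), other scalings and filters, a lowess trend (span 0.3) removed, and livers left out. Per-liver values were given for called mitochondrial genes and the 3 most abundant of each class, outside this rule for *mt-Ti* and *mt-Nd6* (chosen after their values were seen), and of each nuclear list for at most 3 called genes per direction. Gene positions and sequences are those of GENCODE M21. The members and lists were chosen with earlier results of these data known. The livers are of separate mice, and p values measure the spread between them.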

Additional observations from a re-analysis of the deposited data

Results flagged for a closer look

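In 148 sets of values from 1 group, 18 had a lowest or highest liver far from the others of its group, where chance at 1 in 20 gives 7.4. The gap to the nearest liver, as a share of the range of the group, is given for each. AAV-TuD 10 was lowest of the AAV-TuD livers in the CPM of *mt-Rnr1* (0.888), *mt-Nd2* (0.756), *mt-Co1* (0.721), *mt-Nd6* (0.819) and *mt-Tt* (0.709), and in the mitochondrial share of reads outside *Mup* genes (0.638). It was lowest in the ratios *mt-Rnr1/mt-Rnr2* (0.831) and *mt-Nd6/mt-Nd5* (0.677), and highest in *mt-Tw/mt-Nd2* (0.768), *mt-Tf/mt-Rnr1* (0.811), *mt-Tm/mt-Nd2* (0.709) and *mt-Te/mt-Nd6* (0.717). These ratios share genes, so they are not separate observations.

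AAV-TuD 3 was highest of the AAV-TuD livers in *mt-Ta* CPM (0.693). AAV-NC 7 was highest of the AAV-NC livers in the CPM of *mt-Td* (0.749) and *mt-Tr* (0.805) and in the share of *Mup* reads (0.804). AAV-NC 8 was highest in *mt-Rnr1/mt-Rnr2* (0.832), and AAV-NC 2 in *mt-Ts1/mt-Co1* (0.797).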

How the results depend on the processing

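DESeq2 and limma-voom each called 1 rRNA gene lower, *mt-Rnr2*. With library size alone 12 mitochondrial genes were lower (2 protein-coding, 10 tRNA) and 1 was higher, *mt-Ts1*. In that fit 7 of the genes that maintain and express the mitochondrial genome were called. Scaling to the mitochondrial protein-coding reads gave 8424 called genes in all, 11 mitochondrial genes lower (2 protein-coding, 9 tRNA), 2 higher, and 70 maintenance and expression genes. On that scale, whose construction sets the protein-coding sum equal in all livers, log2 fold changes turned to 0.14 for *mt-Rnr1*, 0.089 for *mt-Tv*, 0.23 for *mt-Rnr2*, 0.021 for *mt-Nd1*, 0.043 for *mt-Ti*, 0.19 for *mt-Tq*, 0.088 for *mt-Co1*, 0.0081 for *mt-Co2*, 0.029 for *mt-Atp6*, 0.020 for *mt-Co3*, 0.090 for *mt-Nd4*, 0.084 for *mt-Nd6* and 0.060 for *mt-Cytb*. With the abundance trend removed, 3 protein-coding genes were lower and *mt-Rnr2* was at 0.058. Without AAV-NC 7, AAV-TuD 3 and AAV-TuD 5 together, 5 maintenance and expression genes were called. The log2 fold change of *mt-Ty* was -0.052 by limma-voom. For the changes by DESeq2, limma-voom, library size and trend the cause was not tested.

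With 1 liver left out, 1013 (without AAV-TuD 4) to 1835 (without AAV-TuD 3) genes were called in all, 21 to 26 mitochondrial genes lower and 0 to 1 higher (*mt-Ts1*, without AAV-NC 2). Of these, 8 to 10 were protein-coding, 13 to 17 tRNA and 0 rRNA genes, and 2 to 5 maintenance and expression genes were called. *mt-Ty* ranged from -0.080 to 0.15. Scaled to mitochondrial protein-coding reads, 7 (without AAV-NC 1) to 11 mitochondrial genes were lower and 1 to 2 higher, and the median ratio of the 13 genes as scale gave 10 lower and 2 higher.

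No paired analysis was made, since the sample labels give no link between AAV-NC and AAV-TuD livers. Their replicate numbers run on across the groups. Genes with few reads, *mt-Tf*, *mt-Ti*, *mt-Td*, *mt-Tk*, *mt-Ts2* and *mt-Tt*, are limited by counting error.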
